A study of Homo sapiens with 12 samples.

Results

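The DEAD- and DEAH-box RNA helicases were described across the 4 groups of a study of the transcription factor TFAP2β in a cell line. Members were the genes of the count table whose symbol is DDX or DHX followed by a number and at most 1 letter. That pattern matched 55 genes. The antiviral RNA sensors DDX58, DDX60 and DHX58 were left out, which left 52 of the 24302 features in the table, 37 named DDX and 15 named DHX. Of these, 46 (32 DDX and 14 DHX) had enough counts to be among the 14792 features tested.

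DEAD-box and DEAH-box proteins are named after a short motif in the part of the protein that binds and splits ATP. DEAD-box proteins pull short RNA duplexes apart or clamp onto RNA, whereas most DEAH-box proteins move along a strand and displace what is bound to it. Together they act at nearly every step in the life of an RNA: transcription, splicing, export, ribosome assembly, translation and decay. Several of the nucleolar and splicing members were first described in yeast, and most are expressed in all growing cells, squamous carcinoma cells included.

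RNA was sequenced from KYSE150 cells, an established human line of esophageal squamous cell carcinoma, kept in RPMI medium with serum. Each of the 4 groups held 3 libraries. In the Mut_IDR3 group the cells were made to express GFP-TFAP2β-Mut_IDR3, in the ΔIDR3 group GFP-TFAP2β-ΔIDR3, in the WT group GFP-TFAP2β of normal sequence, and in the GFP group GFP alone, so every group carried GFP. The series describes both altered forms as deficient in phase separation, and IDR stands for an intrinsically disordered region. All groups come from 1 cell line, and the labels give neither the promoter of the constructs nor whether replicates were separate cultures, so a p-value here reflects how far these libraries scatter, which may be technical scatter alone. An exact test of 3 libraries against 3 cannot go below p = 0.1, and single genes were therefore judged in a fit across all features. The changes at Mut_IDR3 are not spelled out in the labels.

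TFAP2B RNA was at 632 to 742 CPM in the 6 libraries of the altered forms, 232 to 323 CPM in the WT libraries and 0 to 0.279 CPM in the GFP libraries, where CPM is the count scaled for library size and composition. Both altered forms therefore held more TFAP2B RNA than WT, and amount and sequence of the construct cannot be told apart in comparisons with WT. Libraries held 30652851 to 43464956 counts. The 10 squamous markers were all detected. Their summed level was 5313 to 5462 CPM in Mut_IDR3, 4517 to 4771 CPM in ΔIDR3, 6802 to 7874 CPM in WT and 5242 to 5447 CPM in GFP, with SOX2 near 0 in WT at a mean of 0.105 CPM, against 4.98 CPM in GFP. Fibroblast markers summed to at most 6.56 CPM, leukocyte markers to at most 0.485 CPM and endothelial markers to at most 1.80 CPM in any library, and PTPRC and PECAM1 had no counts. The share of counts from mitochondrially encoded mRNAs was 8.20% to 8.63% in Mut_IDR3, 7.67% to 7.79% in ΔIDR3, 5.38% to 6.09% in WT and 9.92% to 10.7% in GFP. The part of these shifts in the results on the helicases was not tested.

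TFAP2β belongs to the AP-2 factors, whose motif was searched for in the start-site regions of the members. Shown are 4 of them. DDX5 had the largest fall in WT against GFP, and DHX30 the largest rise among members with such a region on record. DDX6 and DDX54 were picked for their motif matches: no other called member that fell or rose, respectively, had more. All 4 were chosen after their values and matches were seen. Each runs from 250 bases before to 50 bases after the RefSeq start site, read 5′ to 3′ on the strand of the gene, on build GRCh38.p14. DDX5 lies on the minus strand at chr17:64506589-64506888, DDX6 on the minus strand at chr11:118791695-118791994, DHX30 on the plus strand at chr3:47802888-47803187 and DDX54 on the minus strand at chr12:113185429-113185728. Capitals mark matches to the AP-2 motif, searched as GCC, any 3 or 4 bases, then GGC. Both spacings read the same on either strand, and matches may overlap.
DDX5: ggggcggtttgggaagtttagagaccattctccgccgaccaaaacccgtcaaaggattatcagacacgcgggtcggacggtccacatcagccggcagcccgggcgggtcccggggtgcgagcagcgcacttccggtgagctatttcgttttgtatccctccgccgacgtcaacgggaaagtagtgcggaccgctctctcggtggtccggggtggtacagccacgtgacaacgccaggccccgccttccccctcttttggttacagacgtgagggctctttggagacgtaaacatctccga
DDX6: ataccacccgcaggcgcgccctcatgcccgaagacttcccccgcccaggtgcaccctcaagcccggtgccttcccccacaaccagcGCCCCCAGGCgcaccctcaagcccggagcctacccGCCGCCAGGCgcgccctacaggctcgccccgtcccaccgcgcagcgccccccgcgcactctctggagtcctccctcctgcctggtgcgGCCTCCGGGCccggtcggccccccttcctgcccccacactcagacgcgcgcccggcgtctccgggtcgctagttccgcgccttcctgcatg
DHX30: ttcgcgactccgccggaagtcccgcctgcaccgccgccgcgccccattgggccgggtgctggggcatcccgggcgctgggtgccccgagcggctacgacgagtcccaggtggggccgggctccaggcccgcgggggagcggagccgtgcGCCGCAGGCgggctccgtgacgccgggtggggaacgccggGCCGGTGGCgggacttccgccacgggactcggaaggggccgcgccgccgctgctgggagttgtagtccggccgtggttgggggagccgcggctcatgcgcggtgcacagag
DDX54: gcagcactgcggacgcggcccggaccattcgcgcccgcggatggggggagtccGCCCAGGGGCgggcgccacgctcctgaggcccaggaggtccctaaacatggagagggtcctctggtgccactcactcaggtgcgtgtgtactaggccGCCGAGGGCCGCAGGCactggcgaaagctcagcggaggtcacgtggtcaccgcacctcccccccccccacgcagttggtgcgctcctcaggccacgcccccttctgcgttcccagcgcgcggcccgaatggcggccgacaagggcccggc

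The DDX5 window holds no match. The DDX6 and DDX54 windows, picked for their matches, each hold 3 matches and the DHX30 window holds 2. RefSeq windows were matched for 42 of the 46 tested members, and DDX18, DDX49, DDX52 and DHX33 had no entry. Of the 42, 17 (40.5%) held at least 1 match, against 12885 of all 35116 windows of the same length (36.7%). The 2 sets are unlike: all windows were not limited to tested genes or to 1 window per gene. Their median GC was 58.7%, against 61.2% for the 42. A match was found in 9 of 18 members that were lower, 4 of 8 that were higher and 4 of 16 not called in WT against GFP. These counts describe letters in a window of fixed length and say nothing of binding.

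The helicases as a set took a smaller share of the RNA in cells with normal TFAP2β than in any other group. They made up 0.506 ± 0.00805% of all counts in Mut_IDR3, 0.573 ± 0.0151% in ΔIDR3, 0.403 ± 0.00819% in WT and 0.517 ± 0.00710% in GFP (SD, n = 3 each). In bulk RNA, a change in every cell and a change in the mix of cells cannot be told apart. Among the 46 tested members the WT group had the lowest mean level in 30, against 38.4% of all tested features, and the ΔIDR3 group the highest mean in 26, against 23% of all tested features. The map of all 46 members by library shows the 3 WT columns as the bluest, with deep blue in rows of several roles, the splicing row DDX46 among them.

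**Figure D1:**
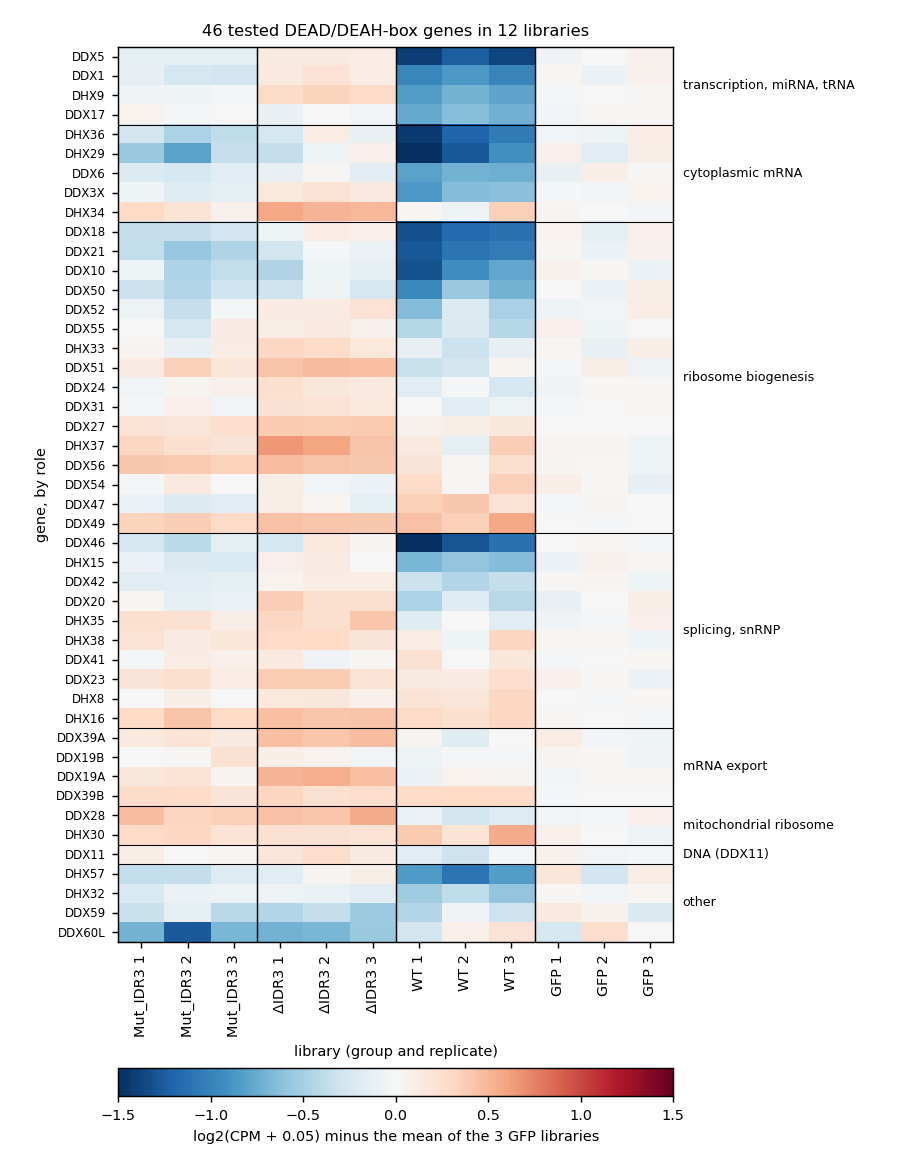
Level of the 46 tested members (rows, grouped by role) in the 12 libraries (columns), as log2(CPM + 0.05) minus the mean of the 3 GFP libraries; blue is lower and red is higher than GFP. The darkest cells are WT libraries of DDX5, DDX46, DHX36 and DHX29, and most rows turn light or red in the ΔIDR3 columns.

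In WT against GFP, 20 of the 46 members were lower and 9 were higher, by edgeR's quasi-likelihood test with Benjamini-Hochberg adjustment over all 14792 tested features (called at an adjusted p under 0.05), and 17 were not called. Of all tested features 27.1% were lower and 27.7% higher, so the share of members that fell (43.5%) was above the background and the share that rose (19.6%) below it. The median log2 fold change was -0.18 over the members and -0.01 over all tested features. With a change of at least 1.5-fold asked for as well, 15 members were lower and 0 higher, where 16.2% and 10.1% of all features were. With the GC trend of each library removed, 30 were lower and 6 higher. Without that removal, the 20 falls remained called when any single library was left out. Of the 9 rises, those of DDX23, DDX54 and DDX56 were lost without 1 library (DDX23 without WT replicate 3, GFP replicate 2 or GFP replicate 3, DDX54 without WT replicate 1 or 3 or GFP replicate 2 or 3, DDX56 without WT replicate 1 or 3 or GFP replicate 3, adjusted p up to 0.122, 0.142 and 0.125).

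All 4 members that act in transcription, microRNA processing or tRNA ligation fell in WT against GFP, with a median log2 fold change of -0.86. Of all tested features 27.1% fell. DDX5 (ENSG00000108654, GRCh38 chromosome 17, 64499616 to 64508199), a coactivator of transcription and a part of the complex that trims primary microRNAs, stood at 358, 357 and 359 CPM in the Mut_IDR3 libraries, 431, 431 and 426 CPM in ΔIDR3, 148, 166.3 and 151 CPM in WT and 378, 392 and 410.3 CPM in GFP. The WT libraries lay far below all 9 others, and the 4 groups did not overlap. The log2 fold change of WT over GFP was -1.34 ± 0.05 (SE), a 2.54-fold lower level (adjusted p = 4.32e-11). Against WT, DDX5 was higher in Mut_IDR3 by 1.21 ± 0.05 and in ΔIDR3 by 1.47 ± 0.05 on the log2 scale (adjusted p = 1.34e-10 and 1.28e-11). Those 2 comparisons rest on the same WT libraries as the one with GFP. Against GFP, DDX5 passed the test in neither altered form (log2 fold changes -0.14 and 0.12, adjusted p = 0.0669 and 0.073). With the GC trend of each library removed, it was called higher in ΔIDR3 (0.18, adjusted p = 0.00111). It was still not called in Mut_IDR3 (-0.020, adjusted p = 0.745).

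DDX17, the close paralog of DDX5 with overlapping tasks, was at 228, 216 and 219 CPM in Mut_IDR3, 204, 220.3 and 215 CPM in ΔIDR3, 129, 141 and 133 CPM in WT and 215, 224 and 222 CPM in GFP. Only the WT libraries stood apart. WT against GFP gave -0.71 ± 0.05 on the log2 scale (adjusted p = 2.82e-08), and the altered forms differed from GFP by 0.0059 and -0.047, neither past the test. DDX1, a part of the ligase complex that joins tRNA pieces during tRNA splicing, was at 81.3, 73.5 and 72.4 CPM in Mut_IDR3, 98.3, 102 and 95.3 CPM in ΔIDR3, 44.98, 48.7 and 44.6 CPM in WT and 90.2, 83.1 and 92.4 CPM in GFP. Again the WT values were the lowest, while the ΔIDR3 values were the highest and did not overlap with Mut_IDR3. DDX1 fell in WT against GFP (-0.94 ± 0.07, adjusted p = 2.5e-08) and in Mut_IDR3 against ΔIDR3 (-0.38 ± 0.06, adjusted p = 0.00188). The second of these was the largest called fall of any member between the altered forms. DHX9, which opens long double-stranded RNA in the nucleus, averaged 195 ± 2.63 CPM in Mut_IDR3, 249 ± 5.49 CPM in ΔIDR3, 118 ± 5.06 CPM in WT and 202 ± 3.53 CPM in GFP. It fell in WT against GFP (-0.78) and rose in ΔIDR3 against GFP (0.30 ± 0.05, adjusted p = 0.000243).

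**Figure D2:**
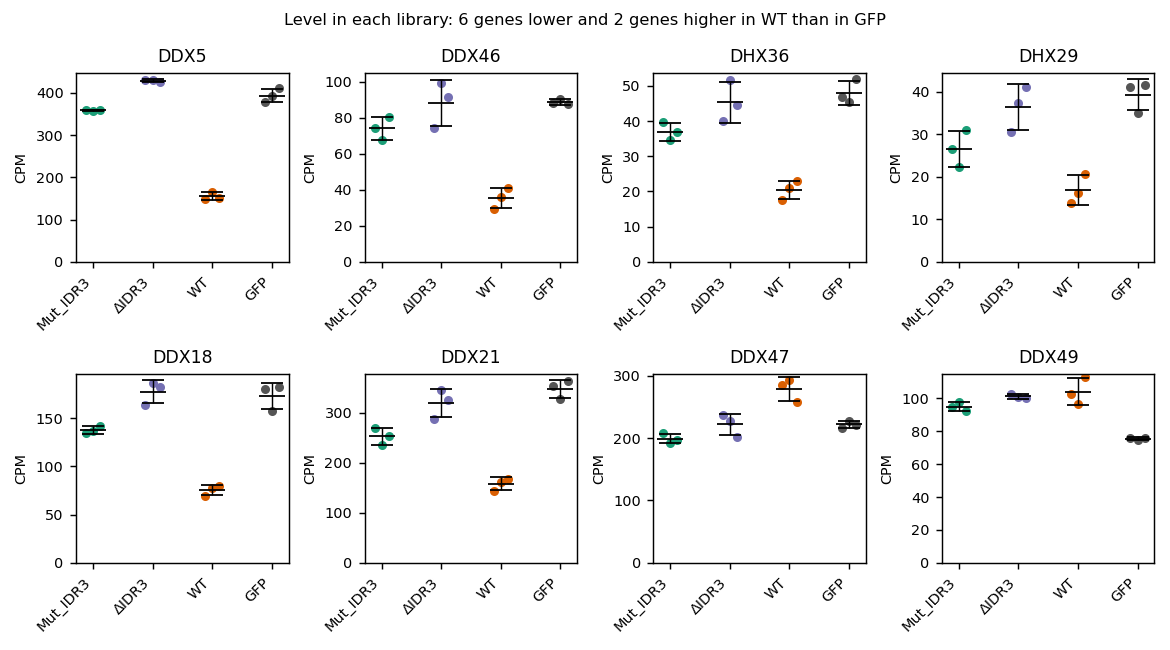
Level in CPM (vertical axes, from 0) of 6 members that were lower and 2 that were higher in WT than in GFP, in the 3 libraries of each group; points are libraries, long bars the mean and short bars ± 1 SD. In the first 6 panels the WT points lie below all others (DDX5 at 148 to 166.3 CPM in WT and 378 to 410.3 CPM in GFP), and in the DDX47 panel they lie above all others.

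Of the 5 tested members that act on cytoplasmic mRNA, 4 fell in WT against GFP and DHX34 was not called (median log2 fold change -0.75). The share of all tested features that fell was 27.1%. DHX36 (chromosome 3, 154272546 to 154324497), which unfolds G-quadruplexes in RNA and DNA, was at 39.6, 34.5 and 36.8 CPM in Mut_IDR3, 40.0, 51.6 and 44.4 CPM in ΔIDR3, 17.7, 20.9 and 22.9 CPM in WT and 46.7, 45.4 and 51.9 CPM in GFP. DHX29 (chromosome 5, 55256245 to 55307722), which helps the small ribosomal subunit pass structured leaders, was at 26.5, 22.4 and 30.9 CPM in Mut_IDR3, 30.5, 37.4 and 41.2 CPM in ΔIDR3, 13.8, 16.2 and 20.6 CPM in WT and 41.2, 35.1 and 41.5 CPM in GFP. For both genes WT was lowest, Mut_IDR3 lay between WT and GFP without touching either, and ΔIDR3 overlapped with GFP (for DHX29 with Mut_IDR3 too). WT against GFP gave -1.23 ± 0.11 for DHX36 and -1.22 ± 0.15 for DHX29 on the log2 scale (adjusted p = 3.34e-07 and 8.28e-06). Mut_IDR3 against GFP gave -0.38 ± 0.11 and -0.56 ± 0.15 (adjusted p = 0.023 and 0.0162). Both calls were lost when Mut_IDR3 replicate 2 or GFP replicate 3 was left out, that of DHX36 also without Mut_IDR3 replicate 3 and that of DHX29 also without GFP replicate 1 (adjusted p 0.0635 to 0.102 for DHX36 and 0.0519 to 0.0872 for DHX29).

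DDX3X, which helps translation start on structured mRNAs, was at 232, 214 and 221 CPM in Mut_IDR3, 271, 284 and 269 CPM in ΔIDR3, 134, 155 and 158 CPM in WT and 241, 238 and 252 CPM in GFP. The WT values were the lowest and the ΔIDR3 values the highest, with no overlap between either and GFP. It fell in WT against GFP (-0.71 ± 0.06, adjusted p = 1.83e-07) and was higher in ΔIDR3 than in GFP by 0.17 ± 0.06 (adjusted p = 0.0415), a call lost without any one of the 6 libraries (adjusted p up to 0.184). Its Y-linked copy DDX3Y is not described. DDX6, which holds repressed mRNAs in P-bodies and feeds them to decapping, averaged 85.2 ± 3.00 CPM in Mut_IDR3, 93.0 ± 6.05 CPM in ΔIDR3, 58.6 ± 2.11 CPM in WT and 98.6 ± 7.48 CPM in GFP (WT against GFP -0.75 ± 0.07, adjusted p = 2.93e-07). DHX34, a factor of nonsense-mediated decay, was at 26.8, 25.1 and 22.8 CPM in Mut_IDR3, 32.6, 31.0 and 30.6 CPM in ΔIDR3, 22.2, 20.7 and 27.8 CPM in WT and 22.3, 21.8 and 21.2 CPM in GFP. Its ΔIDR3 values lay above all others, and it rose in ΔIDR3 against GFP by 0.53 ± 0.10 (adjusted p = 0.00133).

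For ribosome biogenesis the counts lay nearer to the background: of its 16 members, all tested, 6 fell, 4 rose and 6 were not called in WT against GFP (median log2 fold change -0.16), where 27.1% of all features fell and 27.7% rose. The falls were DDX18, DDX21, DDX10, DDX50, DDX52 and DDX55, and the rises DDX49, DDX47, DDX54 and DDX56. DDX18 (chromosome 2, 117814650 to 117832379), a nucleolar protein of large subunit assembly, was at 135, 136 and 142 CPM in Mut_IDR3, 164, 187 and 182 CPM in ΔIDR3, 69.2, 77.2 and 80.0 CPM in WT and 180.3, 158 and 182 CPM in GFP. DDX21 (chromosome 10, 68956128 to 68985073), which links transcription and processing of ribosomal RNA, was at 269.5, 235 and 253 CPM in Mut_IDR3, 288, 344 and 325 CPM in ΔIDR3, 144, 162 and 168 CPM in WT and 353, 328 and 362 CPM in GFP. In both, WT was lowest by a wide gap and Mut_IDR3 lay below every GFP library, while ΔIDR3 overlapped with GFP. WT against GFP gave -1.20 ± 0.07 and -1.14 ± 0.08 (adjusted p = 5.48e-09 and 1.66e-08), Mut_IDR3 against GFP -0.33 ± 0.07 and -0.46 ± 0.07 (adjusted p = 0.00483 and 0.001). DDX10, whose yeast counterpart acts in small subunit assembly, fell in WT against GFP (-0.99 ± 0.14, adjusted p = 2.16e-05), and so did DDX52 and DDX55, counterparts of yeast assembly factors (-0.44 ± 0.11 and -0.36 ± 0.10, adjusted p = 0.00346 and 0.00513).

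DDX49 (chromosome 19, 18919675 to 18928633), an assembly factor of the small subunit in yeast, had the largest rise of any member in WT against GFP. It was at 95.02, 97.9 and 92.2 CPM in Mut_IDR3, 103, 101 and 100 CPM in ΔIDR3, 103, 96.8 and 113 CPM in WT and 76.1, 74.7 and 76.1 CPM in GFP. The GFP libraries were lowest, without overlap, and the WT libraries overlapped with both altered forms. All 3 constructs were higher than GFP, by 0.33 ± 0.06 in Mut_IDR3, 0.42 ± 0.06 in ΔIDR3 and 0.46 ± 0.06 in WT (adjusted p = 0.00152, 8.69e-05 and 7.53e-06). DDX47 (chromosome 12, 12813316 to 12829981), which acts in early processing of ribosomal RNA, differed: it was at 208, 193 and 198 CPM in Mut_IDR3, 237, 227 and 203 CPM in ΔIDR3, 285, 294 and 258 CPM in WT and 217, 228 and 221 CPM in GFP. Here the WT libraries alone were high. WT was above GFP by 0.33 ± 0.06 (adjusted p = 0.000413), and Mut_IDR3 and ΔIDR3 were below WT (-0.48 ± 0.06 and -0.33 ± 0.06, adjusted p = 2.47e-05 and 0.000478), the largest fall against WT of any member above 5 CPM in each. Of the exon bases of DDX47, 36.5% are also annotated to APOLD1 on the same strand, which averaged 8.09 CPM in WT and 7.89 CPM in GFP and was not called.

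DDX56, counterpart of a yeast factor of the large subunit, was at 232, 230.5 and 223 CPM in Mut_IDR3, 242, 236 and 232 CPM in ΔIDR3, 201, 178 and 208 CPM in WT and 180.0, 179 and 168 CPM in GFP. The altered forms were above every WT and GFP library, and WT and GFP overlapped. It had the largest rise in Mut_IDR3 against GFP (0.38 ± 0.06, adjusted p = 0.000575). DDX54, which was first described as a partner of estrogen receptors and acts in the nucleolus, was at 167, 187 and 167 CPM in Mut_IDR3, 179, 164 and 158 CPM in ΔIDR3, 206, 171 and 217 CPM in WT and 181, 171 and 155 CPM in GFP. All of its groups overlapped. It was called lower in ΔIDR3 than in WT (-0.24 ± 0.08, adjusted p = 0.0251), and lost that call without WT replicate 1, WT replicate 3 or ΔIDR3 replicate 3 (adjusted p up to 0.108). DHX37, which frees the U3 guide RNA from the maturing small subunit in yeast, had the largest rise of any member in ΔIDR3 against GFP. It was at 45.9, 43.6 and 42.2 CPM in Mut_IDR3, 57.8, 55.7 and 49.7 CPM in ΔIDR3, 40.9, 33.4 and 47.8 CPM in WT and 38.0, 37.9 and 34.9 CPM in GFP, with ΔIDR3 above all other libraries (0.56 ± 0.11 against GFP, adjusted p = 0.00123).

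Splicing had 4 falls, 3 rises and 3 members not called among 10 in WT against GFP (median log2 fold change 0.0084), counts near the 27.1% and 27.7% of all features. DDX46 (chromosome 5, 134758771 to 134855133), which remodels the U2 particle at the branch site together with SF3b, was at 74.3, 67.7 and 80.3 CPM in Mut_IDR3, 74.1, 99.1 and 91.6 CPM in ΔIDR3, 29.5, 36.1 and 40.7 CPM in WT and 88.4, 90.6 and 87.5 CPM in GFP. WT was far below the rest, and WT against GFP gave -1.33 ± 0.12, a 2.51-fold lower level (adjusted p = 2.34e-07). The other falls were DHX15, which takes spent spliceosomes apart (-0.64 ± 0.06, adjusted p = 4.43e-07), DDX42, a partner of SF3b (-0.37 ± 0.05, adjusted p = 1.39e-05), and DDX20, the helicase of the SMN complex (-0.36 ± 0.09, adjusted p = 0.00338). DHX16 (chromosome 6, 30653119 to 30673037), which starts the first splicing step, was at 150.0, 163 and 149.7 CPM in Mut_IDR3, 166.1, 163 and 164 CPM in ΔIDR3, 149, 143 and 151 CPM in WT and 124, 121 and 120.2 CPM in GFP. GFP was lowest, and all 3 constructs were higher than GFP (0.34 ± 0.05, 0.43 ± 0.05 and 0.28 ± 0.05 in Mut_IDR3, ΔIDR3 and WT, adjusted p = 0.000381, 1.58e-05 and 0.000165). DHX8 (chromosome 17, 43483865 to 43610338), which releases the spliced mRNA, was at 76.9, 81.8 and 76.8 CPM in Mut_IDR3, 85.9, 86.5 and 81.1 CPM in ΔIDR3, 88.6, 86.9 and 95.3 CPM in WT and 76.5, 75.5 and 78.4 CPM in GFP. WT held the highest values and rose against GFP by 0.23 ± 0.05 (adjusted p = 0.00205), and Mut_IDR3 was below WT (-0.20 ± 0.05, adjusted p = 0.00756). DDX23 rose by 0.17 ± 0.06 in WT against GFP (adjusted p = 0.0301), and DDX41, DHX35 and DHX38 were not called.

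Of the 4 members of mRNA export, DDX39B rose in WT against GFP, where 27.7% of all tested features did. DDX39A, DDX19A and DDX19B were not called. DDX39B (chromosome 6, 31530219 to 31542448), the helicase of the TREX export complex, was at 363, 364 and 341 CPM in Mut_IDR3, 374, 351 and 359.6 CPM in ΔIDR3, 364, 368 and 363 CPM in WT and 295, 300.3 and 300.4 CPM in GFP. The 9 construct libraries overlapped and all lay above the 3 GFP libraries (0.25 ± 0.04, 0.28 ± 0.04 and 0.29 ± 0.04 against GFP in Mut_IDR3, ΔIDR3 and WT, adjusted p = 0.00144, 0.000304 and 4.71e-05). Its paralog DDX39A was at 140.4, 146 and 139.6 CPM in Mut_IDR3, 173, 169 and 174 CPM in ΔIDR3, 131, 112 and 128 CPM in WT and 137, 123 and 121 CPM in GFP, with ΔIDR3 highest and Mut_IDR3 next, above the overlapping WT and GFP libraries (0.44 ± 0.06 against GFP, adjusted p = 0.000141). DDX19A, which strips export factors from mRNA at the nuclear pore, was at 107, 109 and 98.0 CPM in Mut_IDR3, 135, 138 and 130 CPM in ΔIDR3, 89.3, 98.3 and 97.5 CPM in WT and 92.1, 96.5 and 96.5 CPM in GFP. DDX19B, its neighbour and near copy, was at 60.3, 60.7 and 70.6 CPM in Mut_IDR3, 64.6, 62.4 and 58.7 CPM in ΔIDR3, 57.2, 59.3 and 59.6 CPM in WT and 62.0, 60.6 and 57.8 CPM in GFP. DDX19A was highest in ΔIDR3, without overlap, and rose against GFP (0.50 ± 0.06, adjusted p = 1.93e-05). DDX19B differed from GFP by 0.042 ± 0.07 in ΔIDR3 (adjusted p = 0.7), with overlap. How reads were shared out between the 2 copies is not stated, so both levels are uncertain.

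Both members of mitochondrial ribosome assembly were higher than GFP in each altered form, where 11.2% (Mut_IDR3) and 15.6% (ΔIDR3) of all tested features were. DHX30 (chromosome 3, 47802909 to 47850195) was at 173, 176 and 164 CPM in Mut_IDR3, 167, 165.7 and 164 CPM in ΔIDR3, 186, 164 and 209 CPM in WT and 149, 142 and 135 CPM in GFP. GFP was lowest, and the 3 construct groups overlapped (0.27 ± 0.07, 0.22 ± 0.07 and 0.39 ± 0.07 against GFP, adjusted p = 0.0183, 0.0321 and 0.000284). The calls of DHX30 in Mut_IDR3 and ΔIDR3 were each lost without GFP replicate 2 or 3 and without 2 of the Mut_IDR3 or all 3 of the ΔIDR3 libraries (adjusted p 0.0538 to 0.0899 in Mut_IDR3 and 0.0796 to 0.153 in ΔIDR3). DDX28 was at 23.1, 20.9 and 21.4 CPM in Mut_IDR3, 22.7, 22.3 and 24.6 CPM in ΔIDR3, 15.6, 13.9 and 14.7 CPM in WT and 16.2, 16.4 and 17.6 CPM in GFP. Here the altered forms were high and WT was lowest (0.38 ± 0.08 and 0.47 ± 0.08 in Mut_IDR3 and ΔIDR3 against GFP, adjusted p = 0.00576 and 0.000633, -0.19 and adjusted p = 0.0727 in WT). With the GC trend of each library removed, DDX28 was not called in Mut_IDR3 against GFP (0.23, adjusted p = 0.077). It was still called higher in ΔIDR3 (0.38, adjusted p = 0.0033). Of the exon bases of DDX28, 22.5% are shared with DUS2 on the opposite strand, which averaged 43.5 CPM in WT and 41.3 CPM in GFP.

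DDX11, a DNA helicase of sister chromatid cohesion that carries the family name and has near-identical copies in the genome, was at 86.5, 80.4 and 82.7 CPM in Mut_IDR3, 92.1, 96.9 and 89.2 CPM in ΔIDR3, 71.9, 65.2 and 79.3 CPM in WT and 84.6, 78.5 and 80.0 CPM in GFP. It was not called in WT against GFP (-0.17 ± 0.07, adjusted p = 0.0506) but was called lower with the GC trend of each library removed (-0.52, adjusted p = 1.36e-06), and ΔIDR3 was above GFP by 0.19 ± 0.07 (adjusted p = 0.0439), a call lost without any one of the 6 libraries (adjusted p up to 0.178). Among little described members, DHX57 and DHX32 fell in WT against GFP (-0.94 ± 0.12 and -0.50 ± 0.07, adjusted p = 1.34e-05 and 2.04e-05). DDX59 was at 8.04, 9.20 and 7.61 CPM in Mut_IDR3, 7.49, 7.95 and 6.97 CPM in ΔIDR3, 7.49, 9.83 and 8.16 CPM in WT and 11.3, 10.6 and 8.78 CPM in GFP. GFP was highest and overlapped with all but ΔIDR3, and the fall in ΔIDR3 against GFP (-0.45 ± 0.14, adjusted p = 0.0238) was lost without ΔIDR3 replicate 1 or 3 or GFP replicate 1 or 2 (adjusted p up to 0.0895). DDX60L, a relative of the antiviral gene DDX60, was the lowest of the tested members per kilobase (0.608 CPM per kb in GFP) and averaged 2.22 ± 0.475 CPM in Mut_IDR3, 2.58 ± 0.154 CPM in ΔIDR3, 4.14 ± 0.711 CPM in WT and 4.12 ± 0.759 CPM in GFP. It was lower in Mut_IDR3 and ΔIDR3 than in WT (-0.90 ± 0.22 and -0.68 ± 0.22, adjusted p = 0.00351 and 0.0155), and than in GFP (-0.89 ± 0.22 and -0.67 ± 0.22, adjusted p = 0.0104 and 0.0295). Without Mut_IDR3 replicate 2 the adjusted p in Mut_IDR3 against GFP was 0.0564, and without WT replicate 3 that in ΔIDR3 against WT was 0.0631.

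The germline members were silent or nearly so. DDX4 and DDX53 had no counts, DDX25 had 6 counts in all, from 1 ΔIDR3 library, and DDX43 had 12 counts in Mut_IDR3, 0 in ΔIDR3, 2 in WT and 2 in GFP. DHX40 had 5 counts in all, from 1 ΔIDR3 library. None of these was tested.

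The counts differed between the altered forms when each was set against GFP. In Mut_IDR3 against GFP 7 members rose and 10 fell, where 11.2% and 9.85% of all tested features did, and the median was 0.0046 on the log2 scale over the members and -0.0053 over all features. Of these 17 calls 8 remained without any single library. The count of falls dropped to 2 to 8 in every fit without 1 library, to 4 without GFP replicate 3, 2 without Mut_IDR3 replicate 2 and 5 without Mut_IDR3 replicate 3. In ΔIDR3 against GFP 22 members rose and 2 fell, where 15.6% and 13.4% of all features did. The median was 0.15 over the members and -0.02 over all features. Of these 24 calls 13 remained without any single library. The count of rises dropped to 13 to 15 in every fit without 1 library, to 14 without ΔIDR3 replicate 1 or 2 and to 13 without GFP replicate 2. The count of falls, DDX59 and DDX60L, dropped to 0 without ΔIDR3 replicate 1 or GFP replicate 2 and to 1 without ΔIDR3 replicate 3 or GFP replicate 1 or 3. The 22 rises included 8 of the 16 members of ribosome biogenesis, 5 of 10 in splicing, 3 of 4 in export and both of the mitochondrial ribosome. With at least 1.5-fold asked for as well, 0 rose and 1 fell in Mut_IDR3 (1.13% and 2.37% of all features) and 0 rose and 1 fell in ΔIDR3 (2.72% and 4.86%). All comparisons with GFP use the same GFP libraries.

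Compared with WT, most helicases were higher in both altered forms. In Mut_IDR3 against WT 27 members rose and 3 fell, where 23.2% and 20.9% of all tested features did, with a median of 0.22 over the members and 0.03 over all features. In ΔIDR3 against WT 34 rose and 3 fell, where 27.2% and 25% of all features did, with a median of 0.45 over the members and 0.03 over all features. With at least 1.5-fold asked for as well, 11 rose and 1 fell in Mut_IDR3 (9.43% and 7.65% of all features) and 18 rose and 1 fell in ΔIDR3 (13.2% and 10.4%). Of the calls 24 of 30 and 34 of 37 remained without any single library. The counts of falls moved with single libraries, to 6 in Mut_IDR3 and 5 in ΔIDR3 without WT replicate 2 and to 1 in ΔIDR3 without WT replicate 3. The 3 largest rises were DDX5, DDX46 and DDX18 in each comparison. DDX46 gave 1.06 ± 0.11 in Mut_IDR3 and 1.32 ± 0.12 in ΔIDR3 (adjusted p = 3.88e-06 and 2.85e-07), and DDX18 gave 0.87 ± 0.07 and 1.24 ± 0.07 (adjusted p = 2.31e-07 and 4.03e-09). These 2 comparisons share the WT libraries with each other and with WT against GFP, so their calls are given side by side and no overlap is counted.

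Between the altered forms, the calls all ran one way. In Mut_IDR3 against ΔIDR3 13 members fell, where 5.24% of all tested features did, and 0 rose, where 5.54% did. No member rose at an unadjusted p under 0.05 either, and DESeq2 and limma-voom also called 0 higher. The median was -0.16 over the members and -0.01 over all features. No member passed both the test and 1.5-fold, where 1.42% of all features did higher and 0.629% lower. Of the called features 51.4% were higher in Mut_IDR3, and 65.3% with upper-quartile scaling. The largest called falls above 5 CPM were DDX1, DDX18 (-0.37 ± 0.07, adjusted p = 0.00452) and DDX19A (-0.36 ± 0.06, adjusted p = 0.00129). DHX29 had the lowest log2 fold change (-0.45 ± 0.15) but did not pass the test (adjusted p = 0.0676). The other called falls were DDX20, DHX9, DDX21, DHX34, DDX3X, DDX39A, DDX5, DDX42, DHX15 and DDX27. Of the 13, 7 remained without any single library. The count was 8 to 10 in every fit without 1 library, and 8 without ΔIDR3 replicate 2, Mut_IDR3 replicate 2 or Mut_IDR3 replicate 3.

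Pairs of related copies are set side by side, as descriptions. For DDX5 and DDX17 the difference of log2 levels, DDX5 minus DDX17, was 0.70 ± 0.04 in Mut_IDR3, 1.01 ± 0.06 in ΔIDR3, 0.20 ± 0.03 in WT and 0.84 ± 0.04 in GFP (SD, n = 3 each). DDX50, the nucleolar paralog of DDX21, was at 58.0, 53.7 and 59.1 CPM in Mut_IDR3, 58.5, 69.0 and 60.5 CPM in ΔIDR3, 37.3, 49.4 and 44.6 CPM in WT and 72.3, 68.3 and 77.5 CPM in GFP. WT was lowest and GFP overlapped with ΔIDR3 alone (-0.73 ± 0.10 in WT against GFP, adjusted p = 1.29e-05). DDX21 minus DDX50 was 2.15 ± 0.06 in Mut_IDR3, 2.35 ± 0.07 in ΔIDR3, 1.86 ± 0.13 in WT and 2.26 ± 0.03 in GFP on the log2 scale. The copies lie next to each other, DDX50 and DDX21 9.28 kb apart on chromosome 10 and DDX19B and DDX19A 11.5 kb apart on chromosome 16. Over the 12 libraries, which include the group differences, Pearson's r of log2 CPM was 0.97 for DDX5 and DDX17, 0.95 for DDX21 and DDX50, 0.36 for DDX39A and DDX39B and 0.20 for DDX19A and DDX19B, as a description.

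**Figure D3:**
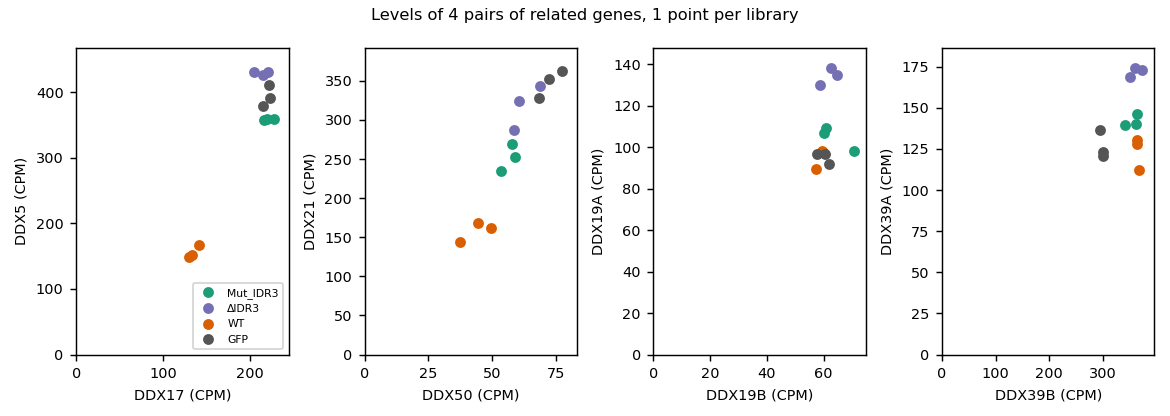
Level in CPM of 4 pairs of related members in each of the 12 libraries, 1 gene on each axis (both from 0); colours are the groups. WT libraries sit at the low end in the DDX5 with DDX17 and the DDX21 with DDX50 panels, and the ΔIDR3 libraries sit apart along the DDX19A axis (130 to 138 CPM) with DDX19B at 58.7 to 64.6 CPM.

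Several members that fell in WT had profiles much alike across libraries, given as a description. The 3 members most like DDX5 over the 12 libraries were DHX9, DDX1 and DDX18 (Pearson's r of log2 CPM 0.98 each), and those most like DHX36 were DDX21, DDX46 and DDX18 (0.99, 0.98 and 0.98). DHX15 was most like DDX1 (0.98), and DDX6 most like DHX15 (0.97). DDX47, highest in WT, had its lowest r with DDX17 (-0.87), and DDX54 with DDX52 (-0.87). The points share libraries, depth and group differences. Per kilobase of the longest transcript, DDX5 had the highest mean level in GFP of the members with values (111 CPM per kb in GFP, 43.6 CPM per kb in WT), and in WT that place went to DDX47 (104 CPM per kb in WT, 82.6 CPM per kb in GFP).

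The members that fell in WT tended to have GC-poor transcripts, as did all features that fell. The GC content of the longest transcript had a median of 40.8% (35.2% to 49.0%) over the 20 members that fell in WT against GFP, 55.9% (41.2% to 61.7%) over the 9 that rose and 51.7% (38.7% to 61.5%) over the 17 not called. Across the 46 members, which are not independent replicates, Spearman's rho of GC with the log2 fold change was 0.84 in Mut_IDR3 against GFP, 0.65 in ΔIDR3 against GFP and 0.70 in WT against GFP, and across 12724 features with a value it was 0.43, 0.19 and 0.51. The plot of GC and change shows no fall in WT above 49.0% GC. The median GC was 48.6% over the tested members and 48.8% over all features, so the members as a whole were not poor in GC. For GC of the start-site window rho was -0.10 with WT against GFP (42 members).

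**Figure D4:**
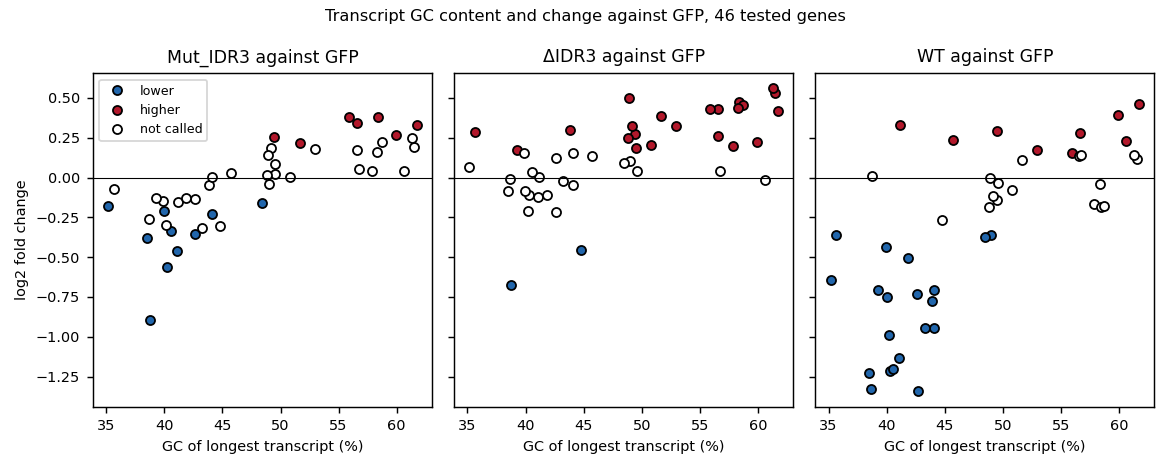
Log2 fold change against GFP (vertical axis) and GC content of the longest transcript in percent (horizontal axis) of the 46 tested members in Mut_IDR3, ΔIDR3 and WT; blue points were lower, red points higher and open points not called. All blue points in the WT panel lie at 49.0% GC or less, and the highest red point in the ΔIDR3 panel, DHX37, lies at 61.3% GC.

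With the GC trend of each library removed, more members were lower in WT. In WT against GFP 30 members were then lower and 6 higher, against 24.2% and 23.9% of all features, with a median of -0.23 over the members and -0.02 over all features. Of the 20 falls 16 remained, smaller in size for all of these but DDX42 (-0.50) and DDX55 (-0.49), and of the 9 rises 4 (DDX39B, DDX47, DDX49 and DHX8). The falls gained were led by DDX11 (-0.52), DDX28 (-0.50), DDX51 (-0.49) and DDX39A (-0.35), with adjusted p = 1.36e-06, 0.000237, 0.000222 and 1.3e-05. The others gained were DDX24, DDX27, DDX31, DDX41, DHX33, DHX34, DHX35, DHX37, DHX38 and DDX56. DDX5 stood at -1.03, DDX46 at -0.77, DHX36 at -0.59, DHX29 at -0.74, DDX18 at -0.73 and DDX21 at -0.75 on the log2 scale, all still called. DDX3X moved to -0.15 and DDX6 to -0.28, while DHX15, DHX32 (-0.12) and DDX52 (0.031) were no longer called and DDX20 turned to 0.28, called higher. DDX60L, at 0.0072 and not called as counted, was also called higher (0.56, adjusted p = 0.0317). Of the rises, DHX30 (0.067), DHX16 (-0.011), DDX23 (-0.048) and DDX54 (-0.098) were not called, and DDX56 turned to -0.14, called lower. DDX47 moved up to 0.71. In Mut_IDR3 against GFP 5 rises and 3 falls (DDX60L, DDX21 and DDX42) remained, against 7.93% and 7.13% of all features, and the falls of DHX36 and DHX29 there were no longer called (-0.12 and -0.38, adjusted p = 0.319 and 0.0729). In ΔIDR3 against GFP 22 members were higher and 1 lower, against 15.4% and 16.1% of all features. Of the 22 rises as counted, 18 remained. DDX11, DDX24, DDX31 and DHX33 were no longer called there, and DDX1, DDX5, DDX52 and DHX15 were gained. Against WT, 31 members were higher and 3 lower in Mut_IDR3 (20.3% and 20.8% of all features) and 35 higher and 3 lower in ΔIDR3 (23.9% and 25.1%). Of the rises as counted against WT, 22 of 27 remained in Mut_IDR3 and 32 of 34 in ΔIDR3. In Mut_IDR3 against ΔIDR3 0 were higher and 17 lower (7.4% and 6.77%), and of the 13 falls as counted 11 remained. Beyond this removal, the part of transcript GC in these changes was not tested.

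**Figure D5:**
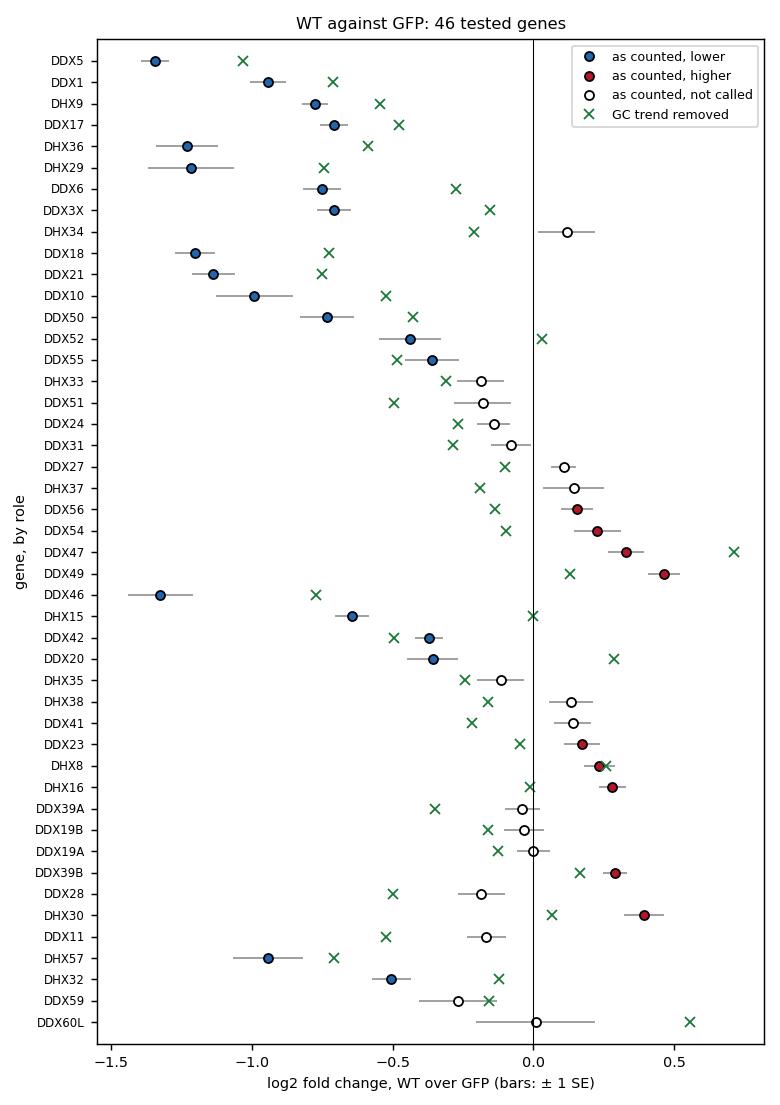
Log2 fold change of WT over GFP (horizontal axis) for the 46 tested members by role (rows); circles are as counted, blue lower, red higher and open not called, with bars of ± 1 SE, and crosses have the GC trend removed. Most blue circles have their cross nearer to 0 (DDX5 at -1.34 and -1.03), while DDX47 has its cross further right (0.33 and 0.71).

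Many members overlap other genes. In the reference annotation 27 of the 46 tested members share exon bases with another gene, 8 of them on the same strand and 23 on the opposite strand, and whether the counts used strand is not stated. DDX5 shares 6.85% of its exon bases with CEP95 on the opposite strand, and CEP95 also fell in WT against GFP (7.50 CPM in WT and 13.9 CPM in GFP). DHX32 shares 10.4% with BCCIP, which averaged 40.9 CPM in WT and 76.5 CPM in GFP. DDX39B shares 29.7% with the readthrough gene ATP6V1G2-DDX39B, listed at 0. DDX19A and DDX19B share 23.8% and 15.7% with AC012184.2. Reads from such bases cannot be told apart here.

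The EIF4A proteins are DEAD-box helicases whose names lie outside the pattern. EIF4A1, the helicase of translation initiation, was at 1987, 2061 and 2012 CPM in Mut_IDR3, 2081, 1871 and 2015 CPM in ΔIDR3, 2321, 2533 and 1852 CPM in WT and 1898, 2052 and 2089 CPM in GFP. EIF4A3, the core of the exon junction complex, was at 234, 221 and 226 CPM in Mut_IDR3, 237, 232 and 239 CPM in ΔIDR3, 206, 234 and 199 CPM in WT and 197, 207 and 205 CPM in GFP. For EIF4A1 the groups overlapped, and neither gene was called in WT against GFP (0.15 ± 0.08 and 0.067 ± 0.06, adjusted p = 0.148 and 0.339). EIF4A2, the close copy of EIF4A1, was at 383, 368 and 366 CPM in Mut_IDR3, 292, 293 and 301 CPM in ΔIDR3, 493, 535 and 447 CPM in WT and 485, 508 and 523 CPM in GFP. It was low in the altered forms alone (-0.44 ± 0.06 and -0.78 ± 0.06 in Mut_IDR3 and ΔIDR3 against GFP, adjusted p = 0.000262 and 4.32e-07, and -0.040 ± 0.06 in WT, adjusted p = 0.592).

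Of 67 partners and relatives listed, 66 were tested, and in WT against GFP 19 rose, 30 fell and 17 were not called, with a median log2 fold change of -0.12, where 27.7% of all features rose and 27.1% fell. Among helicases under other names the largest falls were ASCC3 (-1.48 ± 0.12, adjusted p = 1.26e-07), which clears stalled ribosomes and damaged DNA, and MTREX (-1.33 ± 0.11, adjusted p = 1.64e-07), the helicase of the nuclear exosome. ASCC3 was at 57.4, 47.1 and 48.8 CPM in Mut_IDR3, 50.1, 59.9 and 63.9 CPM in ΔIDR3, 21.1, 26.0 and 29.9 CPM in WT and 69.5, 70.5 and 74.5 CPM in GFP. The WT libraries were lowest and the GFP libraries highest, without overlap. SKIV2L, the cytoplasmic counterpart of MTREX, rose (0.45 ± 0.08, adjusted p = 0.000269). In export, 4 of 11 rose and 4 fell: THOC2 and THOC1, scaffold subunits of TREX around DDX39B, fell most (-1.40 ± 0.19 and -1.34 ± 0.12, adjusted p = 2.16e-05 and 4.3e-07), while the adaptor ALYREF and the export receptor NXF1 rose (0.44 ± 0.05 and 0.30 ± 0.07, adjusted p = 1.79e-06 and 0.00222).

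The other lists are described by their counts in WT against GFP, where 27.1% of all tested features fell and 27.7% rose. Of 4 subunits of SF3b, the partner of DDX46, SF3B1 fell (-0.94 ± 0.08, adjusted p = 3.34e-07) and the other 3 rose, SF3B2 most (0.55 ± 0.04, adjusted p = 5.93e-08). Of 7 partners of EIF4A in initiation 5 fell and 1 rose, with EIF4G3 (-0.61 ± 0.10) and EIF4E, the cap-binding protein (-0.57 ± 0.08), lowest and EIF4G1 higher (0.26 ± 0.07). Among 12 activators of DEAH helicases 7 fell and 3 rose, with GPATCH2 (-0.76 ± 0.10) and GPATCH4 (-0.69 ± 0.07) lowest. Of 8 partners of DDX6, 3 fell and 3 rose, with DCP2, the decapping enzyme, lowest (-0.59 ± 0.13) and its scaffold EDC4 highest (0.52 ± 0.11). Of 6 SMN complex partners of DDX20 2 fell and 2 rose. Of 4 tRNA ligase subunits beside DDX1, FAM98B (-0.55 ± 0.08) and ZBTB8OS (-0.25 ± 0.08) fell and the ligase RTCB rose (0.27 ± 0.06). Of 4 exon junction proteins 2 fell and 1 rose. Over the 66 tested genes of all lists, 15 rose and 10 fell in Mut_IDR3 against GFP (11.2% and 9.85% of all features), and 24 rose and 5 fell in ΔIDR3 against GFP (15.6% and 13.4%). Against WT, 27 rose and 7 fell in Mut_IDR3 (23.2% and 20.9%), and 35 rose and 7 fell in ΔIDR3 (27.2% and 25%). In Mut_IDR3 against ΔIDR3 3 rose and 8 fell (5.54% and 5.24%).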

How the data were processed

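Counts per gene were deposited by the authors as 1 table of whole numbers for 12 libraries of total RNA made with a SMARTer mRNA kit, per the labels. The submitters' processing notes name Trim Galore, HISAT2, StringTie and GRCh38 (hg38). Their versions, the counting program, the annotation and the use of strand are not given in the sources used here, and 0 columns belonged to other samples. Totals were 30652851 to 43464956 counts per library, and counts per gene limit the precision of low genes.

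Features were filtered with filterByExpr, scaled by TMM and fitted with edgeR 4.0.16 (R 4.3.3) by the quasi-likelihood test over all 4 groups (8 residual degrees of freedom), with Benjamini-Hochberg adjustment over all 14792 features. Adjusted p-values in the text come from that fit unless another is named. CPM are counts divided by library size times the TMM factor, errors of CPM are SDs over 3 libraries, and errors of log2 fold changes are SEs from the F statistic. The GC and length trends of each library were removed as offsets over 20 bins, with features at 1 CPM or more, from the longest GENCODE transcript. Alternatives were DESeq2 1.42.0, limma-voom (limma 3.58.1), other scalings, filters and thresholds, leaving out each library, fitting only the groups compared, and a replicate block. The fits were tested on simulated data for WT against GFP, where the edgeR fit called 3 unchanged features with no GC trend. It called 53.7% of features changed 1.5-fold, 86.6% of those changed 2-fold and 100% of those changed 4-fold. A member that was not called may therefore still have changed. Where those data held a GC trend, the fit without a GC term called 3616 unchanged features and the fit with it 12. Calls are therefore also given with the trend removed. The simulated trend was put in and taken out by the same GC values, so it cannot show what the trend in the real libraries comes from.

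Members above 5 CPM with the largest called changes (6 in each direction for WT against GFP, 3 in the others) are given in every library, with their paralogs. The members and lists were chosen with earlier results of these data known. Start-site sequences are RefSeq's.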

Additional observations from a re-analysis of the deposited data

How the results depend on the processing

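The falls in WT against GFP numbered 20 to 22 over the fits that leave out 1 library and 15 to 30 over the other settings. The rises there were 6 to 13 without 1 library. Without 1 library, Mut_IDR3 against GFP gave 6 to 8 rises and 2 to 8 falls, ΔIDR3 against GFP 13 to 15 rises and 0 to 2 falls, Mut_IDR3 against WT 22 to 26 rises and 3 to 6 falls, ΔIDR3 against WT 33 to 36 rises and 1 to 5 falls, and Mut_IDR3 against ΔIDR3 0 rises and 8 to 10 falls. With at least 1.5-fold, the rises were 0 in WT, Mut_IDR3 and ΔIDR3 against GFP, 11 in Mut_IDR3 against WT and 18 in ΔIDR3 against WT. The falls were 1 each in Mut_IDR3 and ΔIDR3 against GFP and against WT, and 0 in Mut_IDR3 against ΔIDR3. At an adjusted p under 0.01, ΔIDR3 against GFP gave 14 rises and 0 falls, ΔIDR3 against WT 1 fall, Mut_IDR3 against GFP 2 falls and Mut_IDR3 against ΔIDR3 7 falls. DESeq2 gave 5 falls in Mut_IDR3 against WT, and removing the length trend 6 falls in each altered form against WT. With the length trend removed, 6356 features were called in Mut_IDR3 and 7488 in ΔIDR3 against WT, rises and falls together. Fitting only Mut_IDR3 and GFP gave 11 rises and 16 falls. Removing the GC trend left 3 falls in Mut_IDR3 and 1 in ΔIDR3 against GFP, where 7.13% and 16.1% of all features fell. For the fits without 1 library, the stricter threshold, DESeq2 and the fit of only Mut_IDR3 and GFP, the share of all features is not given. A shift in those member counts cannot be told from a shift in calling over all features.

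Removing the GC trend turned the direction of some log2 fold changes, and the cause of that trend was not tested. With it removed, WT against GFP stood at 0.28 for DDX20, 0.031 for DDX52, -0.048 for DDX23, -0.10 for DDX27, -0.22 for DDX41, -0.10 for DDX54, -0.14 for DDX56, -0.011 for DHX16, -0.21 for DHX34, -0.19 for DHX37 and -0.16 for DHX38. Mut_IDR3 against WT stood at -0.082 for DDX20, Mut_IDR3 against GFP at 0.096 for DHX15, and ΔIDR3 against WT at 0.23 for DDX49 and 0.024 for DDX54.

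The replicate numbers did not pair the libraries: of 18 correlations between libraries with the same number 2 were over 0.1 (range -0.175 to 0.212), and 7 exceeded those with the other numbers. With a replicate block, WT against GFP gave 9 rises and 20 falls, Mut_IDR3 against GFP 7 and 8, ΔIDR3 against GFP 19 and 2, Mut_IDR3 against WT 27 and 3, ΔIDR3 against WT 34 and 3, and Mut_IDR3 against ΔIDR3 0 and 12. In the same order, that fit called 7932, 2795, 3984, 6280, 7471 and 1206 of all 14792 features, rises and falls together. The replicate block with the GC trend removed gave 4 rises and 3 falls in Mut_IDR3 against GFP and 1 fall in ΔIDR3 against GFP, with the share of all features not given. In that fit WT against GFP stood at 0.28 for DDX20, 0.033 for DDX52, -0.047 for DDX23, -0.22 for DDX41, -0.10 for DDX54, -0.14 for DDX56 and -0.011 for DHX16, Mut_IDR3 against WT at -0.081 for DDX20, Mut_IDR3 against GFP at 0.095 for DHX15, and ΔIDR3 against WT at 0.23 for DDX49 and 0.023 for DDX54. No scaling moved the median of all features by more than 0.1 on the log2 scale.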
